A study of Mus musculus with 12 samples.

Results

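The 5 genes described here, Cebpa, Cebpb, Cebpd, Cebpe and Cebpg, encode the CCAAT/enhancer-binding proteins (C/EBP), a family of basic leucine zipper (bZIP) transcription factors. Members were chosen by name, and every called BRD2 or BRD3 region inside a gene or within 10 kb of a gene end was taken. This gave 8 of the 16188 regions of the series, at 3 of the 5 genes. The whole gene table held 21887 protein-coding genes.

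C/EBP proteins bind DNA as dimers through a basic region and a leucine zipper at their carboxyl end, and they act with the factor PU.1 to set the myeloid programme. C/EBPα is needed for the formation of granulocyte and monocyte progenitors, and C/EBPβ drives inflammatory and metabolic genes in mature macrophages. BRD2 and BRD3 belong to the BET proteins, readers of acetylated histone tails, and I-BET is an inhibitor that fills the acetyl-lysine pocket of their bromodomains.

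Binding was measured by ChIP-seq, in which DNA bound by a protein is pulled down with an antibody and sequenced. The cells were of the mouse macrophage-like line RAW264.7, in which RANKL, the cytokine of osteoclast formation, starts osteoclast development. The groups were untreated cells, cells with RANKL at 50 ng/ml, cells with I-BET at 500 nM, and cells with both, the treated groups for 4 h, and each group had 1 BRD2 and 1 BRD3 library. All groups come from the same line, and no other allele or agent is named in the labels. With 1 library per antibody and treatment there was no replicate error and no test between treatments, so every difference given here is between 2 libraries and has no replicate check.

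The BRD2 lists held 245 to 1716 regions and the BRD3 lists 2232 to 3840. They give the position, width and score of each region but no read counts, so depth is unknown, and a gene without a region is a gene without a call at an unknown depth. Within each antibody the longer lists called more genes in all, and list length and treatment cannot be told apart. Of 8 macrophage marker genes, 6 had a BRD3 region within 10 kb in untreated cells (Spi1, Csf1r, Cd68, Cd14, Lyz2 and Msr1), against 21.6% of all protein-coding genes, while Adgre1 and Itgam had none. Of the T cell, B cell, erythroid, granulocyte and stromal marker genes none had a BRD3 region in untreated cells.

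The sequences just upstream of 3 of the genes are shown first, because the BRD3 regions at Cebpa lie across its start and those at Cebpb begin just past its start, whereas no region lies at the start of Cebpg. Each is the 250 bases before the gene start in RefSeq (GRCm38.p6), 5′ to 3′ on the gene's strand, at chr7:35119043-35119292 (plus strand) for Cebpa, chr2:167688665-167688914 (plus strand) for Cebpb and chr7:35056567-35056816 (minus strand) for Cebpg. Capitals mark matches, on either strand, to the TATA box letters TATAAA, the GC box letters GGGCGG, the CRE half-site letters TGACG and the CCAAT box letters CCAAT, which read as ATTGG when on the other strand. The table used holds an entry for Cebpa, Cebpb and Cebpg, and none for Cebpd and Cebpe.
Cebpa: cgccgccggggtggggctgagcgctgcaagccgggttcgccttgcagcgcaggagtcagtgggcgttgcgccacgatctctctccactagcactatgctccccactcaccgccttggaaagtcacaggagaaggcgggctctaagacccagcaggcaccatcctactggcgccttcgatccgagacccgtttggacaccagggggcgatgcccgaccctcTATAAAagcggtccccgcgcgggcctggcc
Cebpb: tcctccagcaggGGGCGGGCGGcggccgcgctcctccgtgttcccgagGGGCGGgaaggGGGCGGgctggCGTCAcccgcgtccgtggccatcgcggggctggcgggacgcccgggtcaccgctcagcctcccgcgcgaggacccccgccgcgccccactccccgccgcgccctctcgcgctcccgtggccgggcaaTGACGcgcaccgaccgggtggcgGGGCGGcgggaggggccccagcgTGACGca
Cebpg: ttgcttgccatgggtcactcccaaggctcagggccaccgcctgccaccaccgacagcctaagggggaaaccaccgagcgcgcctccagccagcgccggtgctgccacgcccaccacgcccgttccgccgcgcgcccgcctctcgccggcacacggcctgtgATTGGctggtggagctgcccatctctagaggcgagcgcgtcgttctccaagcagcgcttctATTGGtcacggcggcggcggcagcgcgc

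These 3 stretches were all richer in G and C than most promoters. The G and C content was 66.4% at Cebpa, 81.6% at Cebpb and 70.8% at Cebpg, against a median of 52.4% over the 32851 promoter entries of the table. CpG dinucleotides numbered 22, 41 and 29 in the same order, against a median of 6. The Cebpb stretch had more CpG than 98.9% of entries, and the Cebpa stretch more than 85.2%.

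Their short motifs differed. Cebpa had a TATA box match from 30 to 25 bases before the start, a motif found in 12.4% of entries. Cebpb had 5 GC box matches, 2 of which overlap each other by 2 bases, and 3 CRE half-site matches; 32.7% and 17.8% of entries hold at least 1. Cebpg had 2 CCAAT box matches, a motif found in 33.8% of entries. No match was found in these windows to the C/EBP palindrome TTGCNNAA (9.56% of entries), the AP-1 letters TGANTCA (6.75%), the CRE TGACGTCA (1.55%), the E-box CACGTG (6.02%), the PU.1 core GAGGAA (23.3%) or the STAT letters TTCNNNGAA (7.02%). Such matches are descriptions of letters and not of binding.

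**Figure D1:**
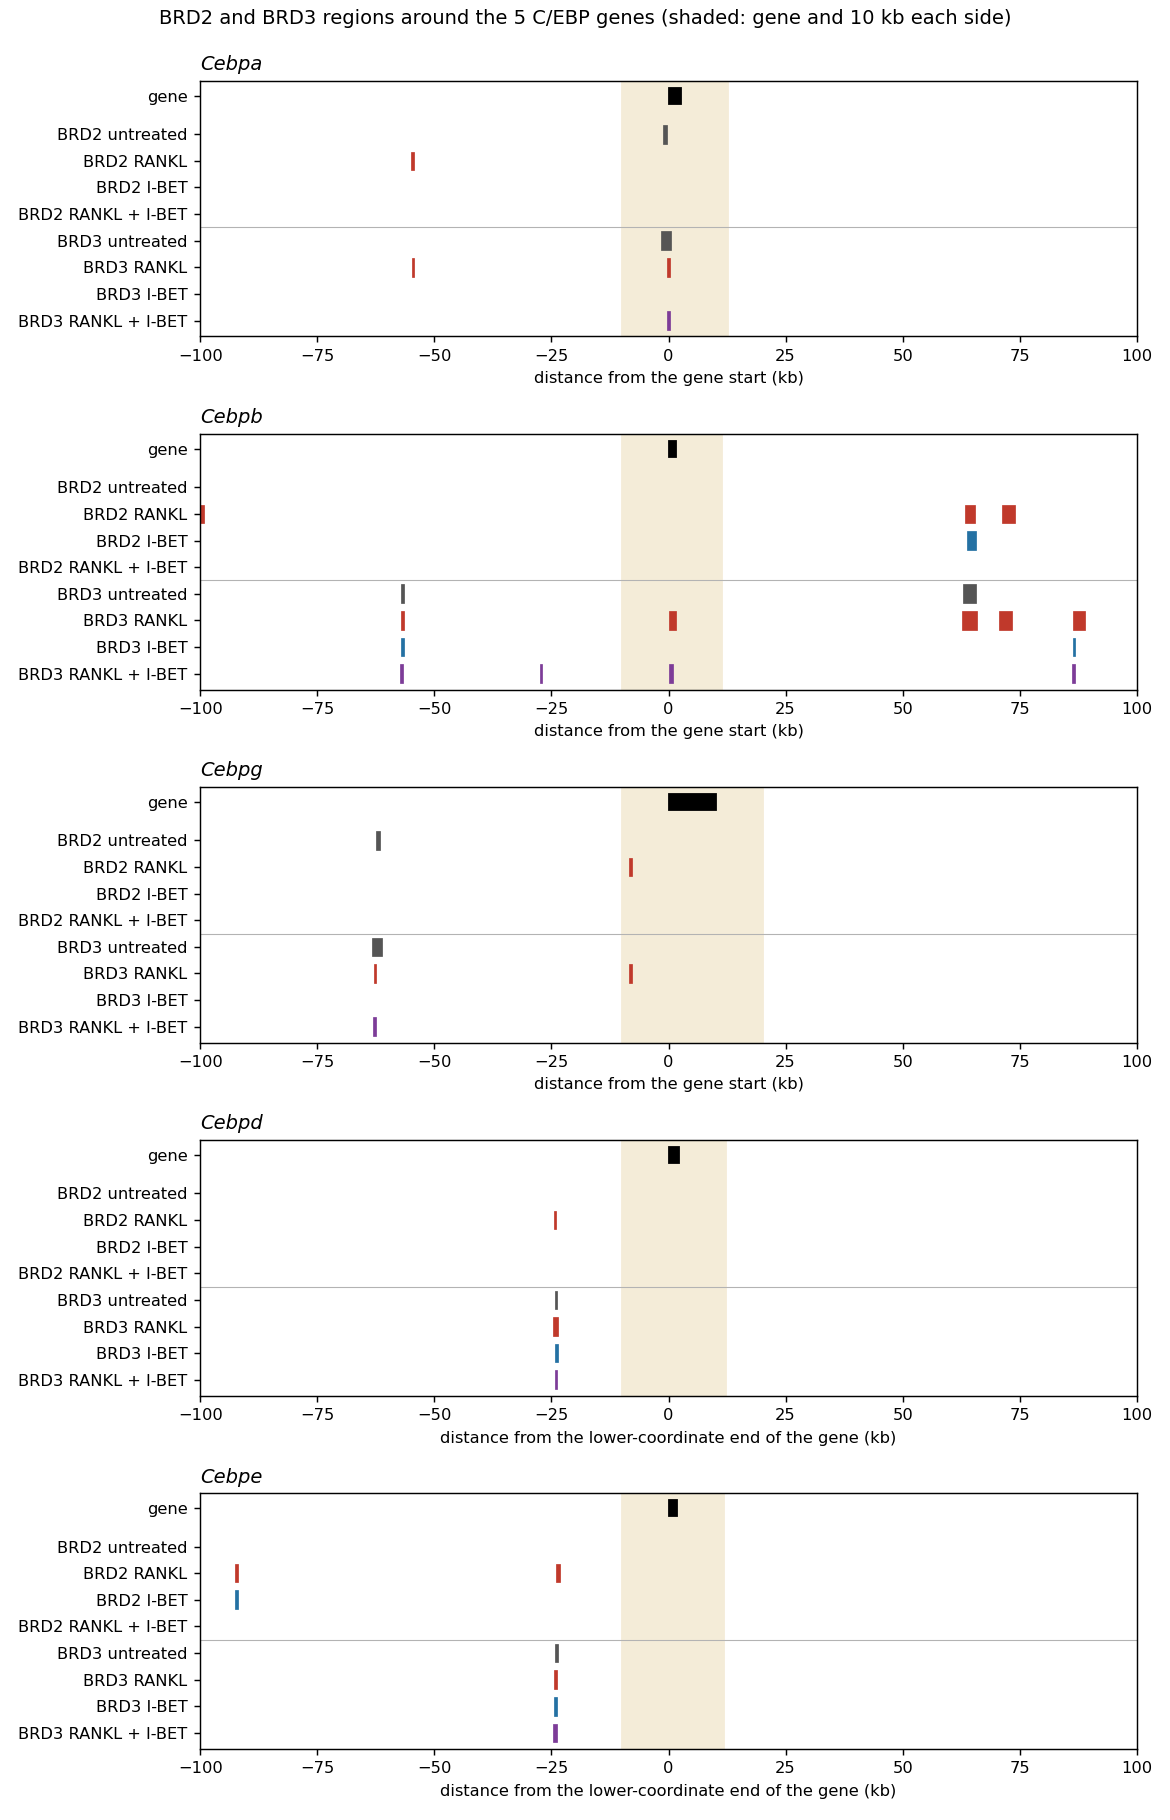
Called BRD2 and BRD3 regions (coloured bars, 1 row per library) within 100 kb of each C/EBP gene (black bar), by distance from the gene start in kb, or from the lower-coordinate end for Cebpd and Cebpe; shading marks the gene and 10 kb each side. Cebpa, Cebpb and Cebpg have bars in the shaded window, and Cebpd and Cebpe have their nearest bars at 23.6 kb and 23.1 kb from the gene.

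Cebpa (chromosome 7, 35119293 to 35121928) had a region in 4 of the 8 lists, more than any other family member. With BRD3 it had 1 region in untreated cells, 1 with RANKL, none with I-BET and 1 when cells received both agents. With BRD2 it had 1 region in untreated cells and none in the 3 treated groups.

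The BRD3 region of untreated cells at Cebpa was 2116 bp wide, from 35117735 to 35119850. It ran from 1558 bp before the gene start to 557 bp past it and covered 21.2% of the gene. Of the BRD3 regions of untreated cells, 93.3% were narrower.

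With RANKL the BRD3 region at Cebpa was 590 bp, from 35118964 to 35119553. It lay wholly inside the region of untreated cells and around the gene start, from 329 bp before it to 260 bp past it. The RANKL region was thus 0.28 times as wide as the region it matched. Over the 2766 untreated BRD3 regions that overlapped a RANKL region by at least 1 bp, the median ratio of widths was 1.01, and 18 (0.651%) had a lower ratio than Cebpa. Among the 153 of these within 1.2 times the untreated width at Cebpa, the median was 0.92 and 6 (3.92%) were lower.

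When cells received both agents the BRD3 region at Cebpa was 566 bp, from 35118999 to 35119564. It shared 555 bp with the RANKL region, so these calls lie at nearly the same place. Their ratio of widths was 0.96, beside a median of 0.93 over 2474 matched regions. Against the untreated region the ratio was 0.27. Over the 2355 untreated regions matched with both agents the median was 0.93, and 1.95% were lower than Cebpa. Among the 77 of these within 1.2 times its untreated width the median was 0.38, and 19.5% were lower. In these 3 lists the BRD3 region covered all of the 250 printed bases and the first 50 bases of the gene. A region overlapped 9.53% of all promoter entries in untreated cells, 9.19% with RANKL and 7.87% with both agents.

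The BRD2 region of untreated cells at Cebpa was 859 bp, from 35118070 to 35118928, and ended 365 bp before the gene start. It lay wholly within the BRD3 region of untreated cells. It shared no base with the BRD3 regions of RANKL or of RANKL with I-BET, which began 36 bp and 71 bp beyond its end. BRD2 was therefore called in the upstream part of the untreated BRD3 region, which the BRD3 calls of the RANKL groups leave out.

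**Figure D2:**
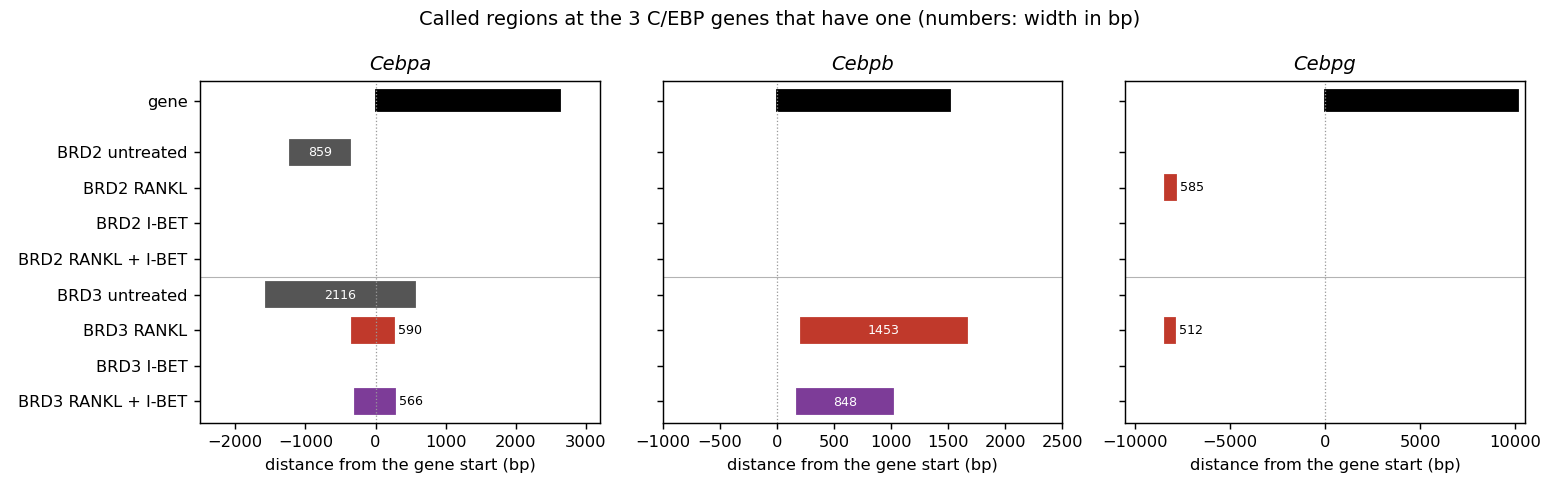
Regions within 10 kb of Cebpa, Cebpb and Cebpg by distance from the gene start in bp, 1 row per library; the black bar is the gene and numbers give widths in bp. At Cebpa the untreated BRD3 region spans 2116 bp and the RANKL and RANKL with I-BET regions 590 bp and 566 bp around the start, while both regions at Cebpb lie past its start.

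Cebpb (chromosome 2, 167688915 to 167690432) had a BRD3 region in the 2 groups that received RANKL and in neither group without it. No BRD2 list held a region within 10 kb of Cebpb. The gene encodes C/EBPβ, which is made as a long activating form and a short form that lacks most of the activating part.

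With RANKL the BRD3 region at Cebpb was 1453 bp, from 167689126 to 167690578. It began 211 bp past the gene start, covered 86.1% of the gene and ended beyond it. With RANKL and I-BET the region was 848 bp, from 167689088 to 167689935, began 173 bp past the start and covered 55.9% of the gene. These regions shared 810 bp, and the ratio of their widths was 0.58. The median ratio was 0.93 over all 2474 matched regions and 0.47 over the 171 regions within 1.2 times its RANKL width, and 65.5% of the latter had a lower ratio than Cebpb.

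The Cebpb calls lay low in their lists by the authors' score, which was used here as a rank within a list. With RANKL 7.8% of BRD3 regions scored lower, and with both agents 3.7% did. At Cebpa the corresponding shares were 61.7% and 28.0%, and 81.2% in untreated cells. Both Cebpb calls were absent when each list was reduced to its top 50% by score, and when the BRD3 lists were reduced by score to equal length. Neither Cebpb region reached the 250 bases printed above.

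Cebpg (chromosome 7, 35046422 to 35056566) had regions with RANKL alone, for BRD2 and for BRD3. It encodes C/EBPγ, a short member without an activating domain of its own that pairs with other bZIP proteins. The BRD2 region was 585 bp, from 35064380 to 35064964, and the BRD3 region was 512 bp, from 35064440 to 35064951 and wholly within it. Both lay upstream of the gene, 7.8 kb and 7.9 kb from it, and the nearest protein-coding record was Gm45095, which overlaps the start of Cebpg. In the other 3 treatments no region lay within 10 kb of Cebpg for either antibody. Cebpg was the member at which BRD2 and BRD3 were called together under RANKL. In lists reduced by score to equal length the BRD2 call was absent and the BRD3 call was present.

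The Cebpg region also lies between Cebpg and Cebpa, which are 62.7 kb apart on chromosome 7. It was 54.3 kb from Cebpa. With RANKL this stretch thus held a BRD3 region near each of them, and in untreated cells the region at Cebpa alone.

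Cebpd (chromosome 16, 15887286 to 15889545) and Cebpe (chromosome 14, 54710363 to 54712174) had no region within 10 kb in any of the 8 lists. C/EBPδ is known as an early inducible factor of the acute-phase response, and C/EBPε acts in late granulocyte maturation. Of all protein-coding genes, 68.1% likewise had no region in any list. The nearest regions lay well beyond the 10 kb limit and at other genes. For Cebpd they were 23.6 kb to 24.0 kb away at Mzt2, in the BRD2 RANKL list and all 4 BRD3 lists. For Cebpe they were 23.1 kb to 23.8 kb away at Acin1 and 1700123O20Rik, in the same 5 lists. The farthest regions inside the limit were those at Cebpg, at 7.9 kb.

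**Figure D3:**
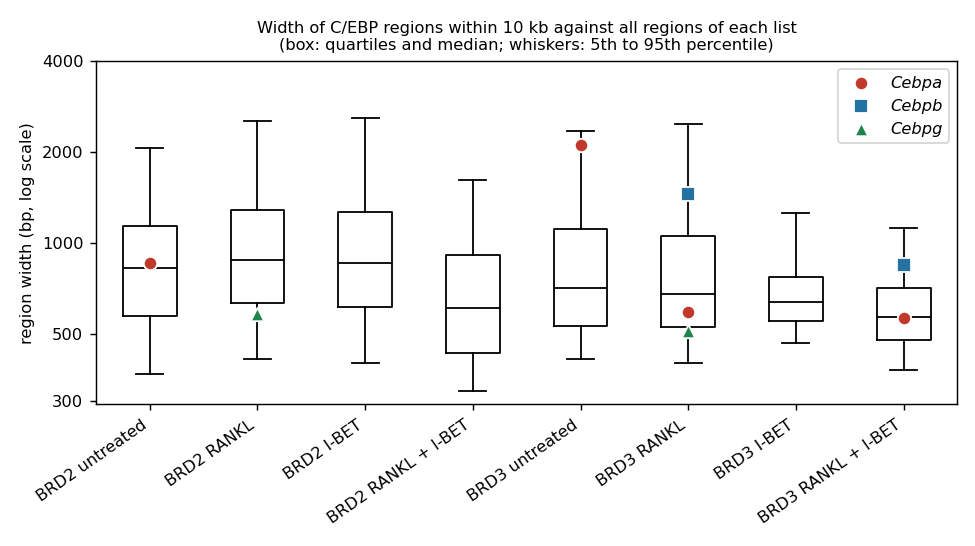
Width of each region within 10 kb of Cebpa, Cebpb or Cebpg (symbols, bp on a log scale) over the widths of all regions of the same library (box: quartiles and median; whiskers: 5th to 95th percentile). The Cebpa symbol stands at 2116 bp in the untreated BRD3 library and at 590 bp with RANKL, and the Cebpb symbols lie above the upper quartile.

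Counted as genes, 1 of the 5 had a BRD3 region in untreated cells (Cebpa), 3 with RANKL (Cebpa, Cebpb and Cebpg), 0 with I-BET and 2 with both agents (Cebpa and Cebpb). Of all protein-coding genes 21.6%, 21.9%, 15.1% and 18.4% had one in the same order. BRD2 regions were at 1 of the 5 in untreated cells (Cebpa), 1 with RANKL (Cebpg), 0 with I-BET and 0 with both, where all genes gave 3.64%, 10.5%, 6.41% and 1.59%. With 5 genes and 1 library per list, no test of these counts against those shares was made.

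The comparison of RANKL with untreated cells asks where the cytokine goes with BET calls. For BRD3, Cebpb and Cebpg had a region with RANKL and none in untreated cells, which held for 4.33% of all genes, and 0 had the reverse (4.06%). For BRD2, Cebpg had a region with RANKL and none in untreated cells (8.37%), and Cebpa had the reverse (1.52%). At Cebpa the antibodies thus differed, with the BRD3 call present at a smaller width and no BRD2 call.

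The comparison of I-BET with untreated cells asks which calls are missing under the inhibitor. Cebpa had a BRD3 region in untreated cells and none with I-BET, as did 8.20% of all genes. Of the 4724 genes with a BRD3 region in untreated cells, 62.0% (95% exact binomial interval 60.6% to 63.4%, counting error only) had one with I-BET. Cebpa likewise had a BRD2 region in untreated cells and none with I-BET (1.82%). No member had a region with I-BET and none in untreated cells, against 1.67% of genes for BRD3 and 4.60% for BRD2.

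With I-BET added to RANKL, Cebpa and Cebpb had a BRD3 region in both lists, and Cebpg had a BRD3 region with RANKL and none with both agents (5.38% of all genes). The reverse, a region with both agents and none with RANKL, was found at 0 members and 1.95% of genes. Of the 4783 genes with a BRD3 region under RANKL, 75.4% (74.1% to 76.6%) had one with both agents. For BRD2, Cebpg had a region with RANKL and none with both (9.41%), and 0 had the reverse (0.507%). When RANKL was added to I-BET, Cebpa and Cebpb had a BRD3 region with both agents and none with I-BET, which held for 4.13% of genes, and 0 had the reverse (0.763%). No member had a BRD2 region in either of these lists, where 0.580% of genes had one with both agents and not with I-BET and 5.40% the reverse. These comparisons share libraries with each other, so their counts are not independent.

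BRD2 and BRD3 were called at the same members in untreated cells, at Cebpa, so 0 members had BRD3 without BRD2 (19.4% of all genes) and 0 the reverse (1.47%). With RANKL, Cebpg had both, and Cebpa and Cebpb had BRD3 without BRD2, as did 16.3% of all genes, while BRD2 without BRD3 was found at 0 members and 4.92% of genes. With I-BET neither antibody was called at a member, where 13.0% of genes had BRD3 without BRD2 and 4.32% the reverse. With both agents Cebpa and Cebpb again had BRD3 without BRD2 (17.8%), and 0 had the reverse (0.937%).

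Across the 8 lists the 3 called members had 3 different patterns. The pattern of Cebpa was found at 13 of all genes, that of Cebpb at 108 and that of Cebpg at 94, each count with the member itself. Likeness was measured by the Euclidean distance, over the 8 lists, of log10 of the length in bp covered by regions in the 10 kb window plus 1, and genes that share a region with the member were left out. By this measure the genes most like Cebpa were Ssu72, a phosphatase gene of RNA polymerase II, and Chd1l, a chromatin remodeller gene, both at a distance of 0.36, and Fndc10 at 0.41. The untreated BRD3 regions at these covered 995 bp, 1000 bp and 1512 bp, each less than the 2116 bp at Cebpa. Ssu72 and Fndc10 are both on chromosome 4, and both had 986 bp of BRD2 regions in untreated cells. Whether they share regions was not examined, so they may not be separate cases. Among the genes most like Cebpb were Gfm2 and Jarid2, the latter a gene of a Polycomb complex partner, both at 0.22. Gm45095, whose window holds the same regions as that of Cebpg, was left out on this ground, and the genes next most like Cebpg were Fxyd1 at 0.05, Adamtsl1 at 0.07 and Prr14 at 0.09.

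The surroundings of the family in its pathway were read from 3 lists of genes, and each was set against the share over all genes given above. Of 26 other bZIP genes, whose products include dimer partners of C/EBP, those with a BRD3 region numbered 9, 10, 6 and 7 (34.6%, 38.5%, 23.1% and 26.9%) in the order untreated, RANKL, I-BET and both agents. Ddit3 and Atf5, which encode stress-response factors, and Fosb and Nfe2 had one in all 4 BRD3 lists, as did 12.1% of all genes. At Ddit3, the gene of a C/EBP relative known as CHOP, the covered length was 2247 bp, 2212 bp, 2213 bp and 2181 bp from untreated cells to both agents, and no BRD2 list held a region. For genes of these lists, any region in the 10 kb window was counted, and whether it lay nearer to another gene was not examined.

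Some of these genes had the same BRD3 calls as a C/EBP gene, and others did not. Junb, an AP-1 gene, was called in the same BRD3 lists as Cebpa, with 6635 bp in untreated cells, 4566 bp with RANKL and 1388 bp with both agents. Jund and Dbp had BRD3 regions with RANKL, I-BET and both, a set of calls that no C/EBP gene had. Atf4, whose product pairs with C/EBP proteins, had 1484 bp in untreated cells and 1091 bp with RANKL. It had no BRD3 region in the groups with I-BET, and its BRD3 calls too were those of no C/EBP gene. Fos and Fosl2 had a BRD2 region under RANKL and in no other BRD2 list, and each had a BRD3 region under RANKL alone as well. Over the 8 lists these are the calls of Cebpg, found at 0.429% of all genes. Of the 26 genes, 4 (Dbp, Jund, Fos and Fosl2) had a BRD3 region with RANKL and none in untreated cells (4.33% of all genes). The reverse was found at 3, Jun, Bach1 and Xbp1 (4.06%), which had a region in no other list.

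Of 18 regulators and cofactors of C/EBP in myeloid cells, 4, 6, 3 and 3 had a BRD3 region in the same order (22.2%, 33.3%, 16.7% and 16.7%). Trib1 and Cop1 encode a pseudokinase and a ubiquitin ligase that together lead C/EBPα to degradation. Trib1 had the same BRD3 calls as Cebpa, with 1207 bp in untreated cells, 804 bp with RANKL and 778 bp with both agents, a set of calls found at 2.58% of all genes. Cop1 had a BRD3 region in all 4 lists, as did Smarca4, the gene of a chromatin remodelling ATPase, and 12.1% of all genes. Spi1, the gene of PU.1, had 6085 bp, 6587 bp and 948 bp of BRD3 regions in untreated cells, RANKL cells and I-BET cells. It had no BRD3 region with both agents, where Cebpa and Cebpb had theirs. For BRD2, Spi1 was called in all 4 lists (2750 bp, 4851 bp, 3649 bp and 605 bp in the same order). Its BRD2 length too was smallest with both agents. Cebpa and Cebpb had no BRD2 region with both agents, where 1.59% of all genes had one. Runx1 and Rps6ka1 had a BRD3 region with RANKL alone, a set of BRD3 calls found at 2.33% of all genes. Crebbp, the gene of an acetyltransferase, had BRD2 regions with RANKL and with I-BET and no BRD3 region.

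Of 24 known C/EBP targets of myeloid cells, 4 had a BRD3 region in untreated cells (16.7%) and 5 under RANKL (20.8%), and 0 had one in either group with I-BET. They were Csf1r, the M-CSF receptor gene, the lysozyme gene Lyz2, the receptor gene Cd14 and the chemokine gene Ccl3, joined by Tnf under RANKL. At Cd14 the covered length was 1692 bp in untreated cells and 8387 bp with RANKL. The BRD2 lists differed from this under I-BET alone, where Csf1r had 6065 bp and Cd14 3962 bp of BRD2 regions. Neither gene had one in untreated cells, a change found at 4.60% of all genes. Lyz2 had the reverse, with 457 bp of BRD2 regions in untreated cells and none with I-BET (1.82% of all genes). Under RANKL the BRD2 regions covered 5565 bp at Csf1r and 2614 bp at Cd14, and with both agents no target had a BRD2 region. The targets without any region included Il6, Il1b, Nos2, Arg1, Elane and Mpo. The lists of both agents thus held BRD3 regions at Cebpa and Cebpb and at none of these targets. By score these 2 calls lay low in their list, with 28.0% and 3.7% of regions lower. Neither was in its top 50% by score, and in lists of equal length by score only that at Cebpa remained.

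**Figure D4:**
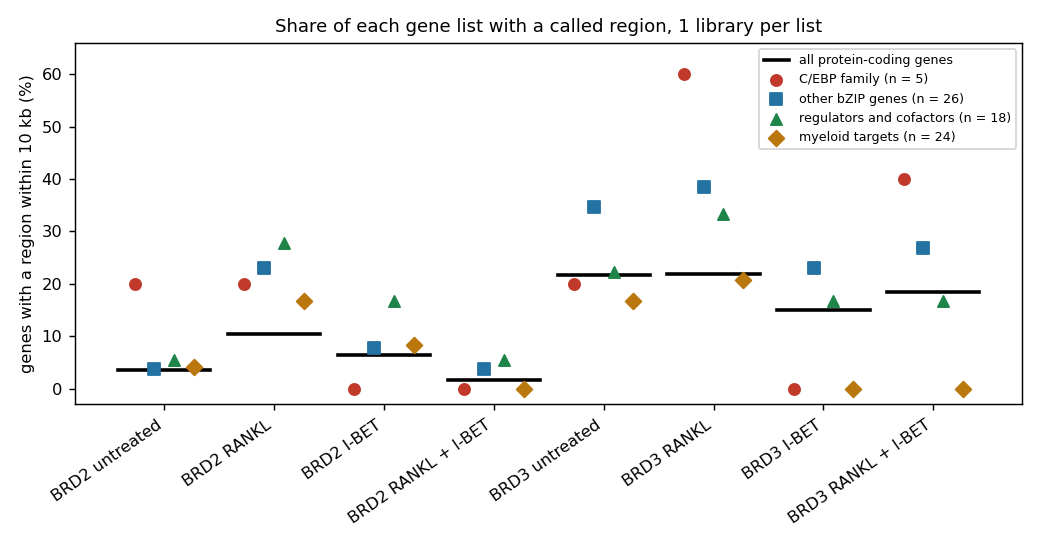
Percentage of each gene list with a region within 10 kb, for each of the 8 libraries; black lines give the percentage over all protein-coding genes. With I-BET and BRD3 the C/EBP family and the myeloid targets stand at 0 beside 15.1% of all genes, and with RANKL and BRD3 3 of 5 C/EBP genes are called beside 21.9%.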

How the data were processed

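The data were 8 deposited peak lists, 1 for each of BRD2 and BRD3 in 4 treatments. The 4 input libraries have no peak list and were not analysed here. Per the submitters' processing notes, which give no settings, the build was mm10/GRCm38 and the tools were MACS2 2.1.1.20160309, Bowtie2 2.3.4.1 and FastQC. The score of each region is the authors' deposited value, on a scale not given in the sources used, and it served as a rank within a list. By their deposited names, 98.41% to 99.96% of regions join exactly 3 peaks.

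Gene positions came from a RefSeq table of GRCm38.p6, which gives gene ends but no exons. Strands came from the RefSeq promoter table (250 bases before to 50 after a start). The gene start was the upper-coordinate gene end on the minus strand and the lower-coordinate end otherwise. The lower-coordinate end was also used for Cebpd and Cebpe, which have no promoter entry. All positions count from 1. A gene was called when at least 1 bp of a region lay in it or in the 10 kb on either side, and regions of 2 lists were matched by an overlap of at least 1 bp. Covered length is the part of the regions inside that window. Python 3.11.15 with pandas 2.3.3 was used, and the counting was tested on simulated intervals. Alternatives were windows of 1 kb, 50 kb and 100 kb, region midpoints, the top 50% by score, lists of equal length by score, regions of exactly 3 peaks and a 50% overlap.

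All members were named, then per pathway list up to 8 genes in order of the number of lists calling them, and for each called member the 3 genes most like it; some items are not reported here. Names beyond these (Fos, Fosl2, Jun, Bach1, Xbp1, Lck and the uncalled targets) were chosen after their values were seen. The members and gene lists were chosen with earlier results of these data known.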

Additional observations from a re-analysis of the deposited data

Results flagged for a closer look

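The differences in covered length of BRD3 regions at Cebpa with RANKL had opposite signs in the absence and in the presence of I-BET. RANKL minus untreated was -1526 bp, from 2116 bp to 590 bp, and RANKL with I-BET minus I-BET was 566 bp, from no region to 566 bp. Each value is a difference between 2 libraries, and the difference between them was not tested. With no BRD3 call at Cebpa under I-BET, the second difference could not be negative, and that missing call is one at unknown depth. Of the BRD3 regions with both agents 28.0% scored lower than the 566 bp one, which was absent in the top 50% by score. It was present in lists of equal length by score. No other member had covered lengths that moved in opposite directions under a treatment for either antibody.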

How the results depend on the processing

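Region midpoints and regions of exactly 3 joined peaks changed none of the counts of members by over 1.5 times, and the 50% overlap left the number of matched region pairs at 6. The other settings did, in part because they hold fewer regions or a wider window. No paired analysis was possible because each group has 1 library.

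Within 1 kb of a gene, Cebpg lost its calls: BRD2 under RANKL was at 0 members, the calls of RANKL and untreated cells differed at 1 member for BRD2 and 1 for BRD3, and those of RANKL with and without I-BET at 0 for each. Within 50 kb, where regions of neighbouring genes enter, members called numbered 3 for BRD2 with RANKL, and for BRD3 3, 5, 2 and 4 in the order untreated, RANKL, I-BET and both. There BRD2 calls differed at 4 members between RANKL and untreated cells and at 3 between RANKL with and without I-BET, and BRD2 and BRD3 differed at 2 in untreated cells, 2 with I-BET and 4 with both. Within 100 kb, added after seeing the data, BRD2 was at 2, 5 and 2 members in the first 3 of these groups, and BRD3 at 5, 5, 3 and 5. BRD2 calls differed there at 4 members between I-BET and untreated cells, 5 between RANKL with and without I-BET and 2 between I-BET with and without RANKL, and BRD3 calls at 0, 2 and 0 for RANKL against untreated, I-BET against untreated and I-BET added to RANKL. BRD2 and BRD3 differed at 3, 0, 1 and 5 members in the 4 treatments.

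In the top 50% of each list by score, BRD3 with both agents was at 0 members, since the calls at Cebpb and Cebpa ranked low. BRD3 calls then differed at 1 member between RANKL and untreated cells, 2 between RANKL with and without I-BET and 0 between I-BET with and without RANKL, and BRD2 and BRD3 differed at 1 member with RANKL and 0 with both. In lists of equal length by score, BRD2 with RANKL was at 0 members (Cebpg lost) and BRD3 with both agents at 1 (Cebpa). Cebpb had no call in any list under either of these score settings. RANKL and untreated cells then differed at 1 member for BRD2 and 1 for BRD3, RANKL with and without I-BET at 0 for BRD2, I-BET with and without RANKL at 1 for BRD3, and BRD2 and BRD3 with both agents at 1. Unknown depth limits every missing call.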

Other observations

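Beyond 10 kb, Cebpb had a group of wide regions on its downstream side that no other protein-coding gene was closer to. In untreated cells a BRD3 region of 2846 bp lay 61.4 kb from Cebpb, and the next protein-coding gene, Tmem189, was 90.3 kb from it. Of the BRD3 regions of that list 96.7% were narrower, while 6.3% scored lower. With RANKL there were 3 BRD3 regions, of 3023 bp at 61.2 kb, 2807 bp at 69.0 kb and 2442 bp at 84.9 kb from the gene. By score they lay low in their list, with 8.2%, 1.3% and 18.5% of regions lower. The last of them overlapped the lncRNA records Gm32287 and Gm14321. With I-BET the BRD3 list held a region of 563 bp at 84.8 kb, and with both agents a region of 620 bp at 84.7 kb, and neither list held a region at the first and second places.

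BRD2, which had no region within 10 kb of Cebpb, was called at these distant places too. With RANKL the BRD2 regions were 2196 bp at 61.8 kb and 2783 bp at 69.7 kb. With I-BET alone a BRD2 region of 1805 bp lay 62.3 kb away, where the BRD3 list of the same treatment had no region. The BRD2 lists of untreated cells and of both agents had no region there. These regions were described after their values were seen, and the lists do not tie a distant region to a gene.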
